A study of Mus musculus with 8 samples.

Results

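The genes described here are the interleukins, the colony-stimulating factors (CSFs), their receptor chains and decoys, and the intracellular SOCS inhibitors, 59 genes in all out of 36528 measured. They were chosen by name, from their known functions but with earlier results of these data known, and found in the files by Entrez identifier. Polyadenylated RNA was sequenced from mouse mesothelial cells, which line the body cavities, with the omentum as their primary tissue. There were 4 libraries with knockout of BAP1 (BAP1 KO), a nuclear deubiquitinase and tumour suppressor, and 4 from BAP1 wild type cells (WT). Genotype is the only difference between the groups that the labels give. The labels name no deletion method, strain, age or number of mice. They also do not tie the libraries to different mice or cultures, so every p-value below rests on library-to-library spread that could be technical. The replicate numbers used below only name libraries in the order of deposition and pair nothing.

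Interleukins and CSFs are secreted proteins by which leukocytes and tissue cells signal to each other. Most act through receptors built from a chain that binds 1 ligand and a chain shared by several ligands, with Janus kinases (JAK) and STAT transcription factors inside the cell, whereas receptors of the IL-1 family signal through the adaptor MyD88 to NF-kB. Some chains bind a ligand without signalling and so act as decoys, and SOCS proteins, themselves induced by STATs, restrain the JAK-STAT pathway. Mesothelial cells are a known source of IL-6, and macrophages of the omentum depend on CSF1.

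The cytokine genes of BAP1 KO cells moved in both directions, with more large falls than large rises. Of the 59 genes, 52 had enough counts to be tested. In BAP1 KO 18 were higher and 22 lower (edgeR quasi-likelihood test, Benjamini-Hochberg adjusted p below 0.05), and 12 were not called. That is 76.9% called, where 61.1% of all 16929 tested genes were called, 29.0% higher and 32.1% lower. Changes are given throughout as the log2 fold change, BAP1 KO minus WT, with its standard error. Mean levels carry the SD over the 4 libraries of each genotype (n = 4 each), and adjusted p-values are those of edgeR unless another tool is named. At a change of at least 1.5-fold, 2 were higher (Il10 and Il18bp) and 13 lower (Il1r1, Il33, Il18rap, Il7r, Il13ra1, Il15, Il11, Osm, Il12rb1, Il27ra, Il17rc, Socs2 and Cish). Together these are 28.8% of the tested members, where 14.8% of all tested genes passed both limits, 4.49% higher and 10.3% lower. The median log2 fold change was -0.12 over the tested members and -0.005 over all tested genes. In 40 of the 52 the 4 BAP1 KO values lay wholly on one side of the 4 WT values. Of all tested genes a smaller share, 53.8% (9115 of 16929), were separated in that way. Cish and Il17rc lay just past 1.5-fold and fell short of it with RLE factors, with DESeq2 and without BAP1 KO replicate 3 or 4 or WT replicate 4, Cish also without WT replicate 3 and Il17rc also without WT replicate 2.

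**Figure D1:**
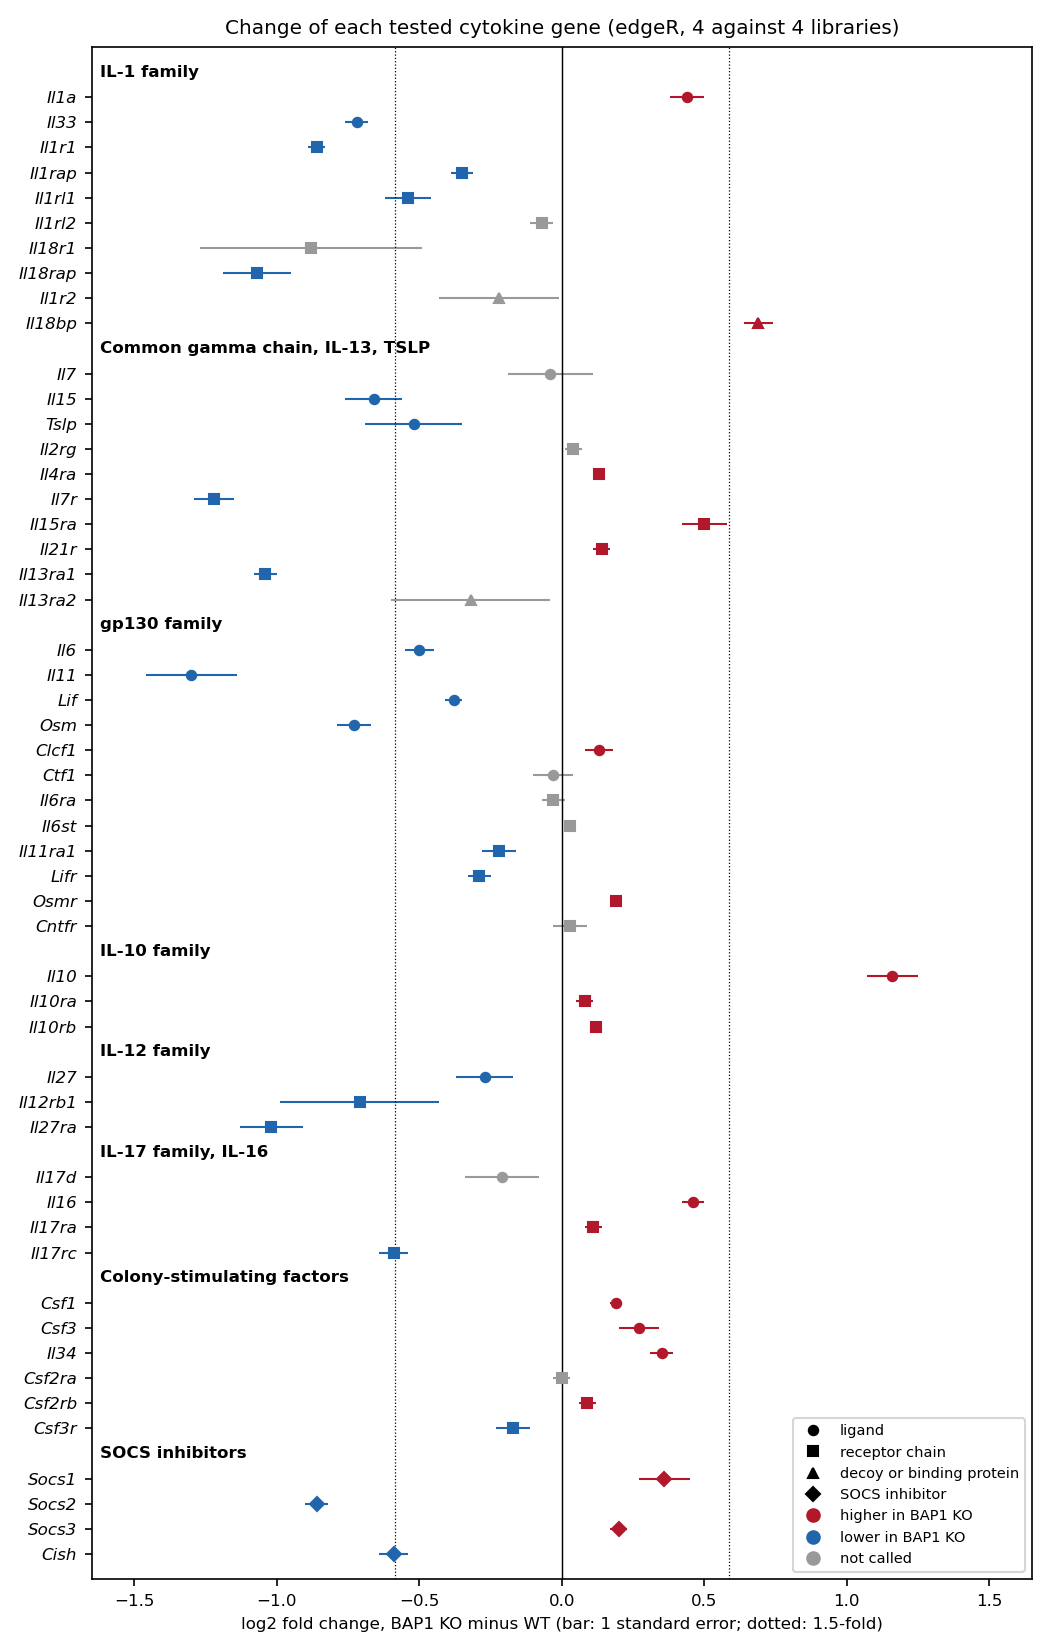
Log2 fold change (BAP1 KO minus WT, horizontal axis) of the 52 tested cytokine genes, grouped by family, with 1 standard error; symbols mark the role, colours the call, and dotted lines a 1.5-fold change. Falls past 1.5-fold stand in every family but IL-10 and the CSFs, and the rises past it are Il10 and Il18bp.

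By role, 8 of 18 tested ligands fell, 7 rose and 3 were not called. Of 27 receptor chains 12 fell, 8 rose and 7 were not called. Called were 83.3% of the tested ligands and 74.1% of the receptor chains, against 61.1% of all tested genes (29.0% higher and 32.1% lower). Of the 3 decoys or binding proteins 1 rose and 2 were not called, and the 4 SOCS genes split evenly, 2 up and 2 down. The median log2 fold change was -0.13 over the tested ligands and -0.07 over the receptor chains. No receptor chain rose by 1.5-fold, and 7 fell by at least that much. Of all tested genes, 4.49% were higher and 10.3% lower past both limits, so rises of that size were few among all genes too.

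Levels between genes are compared here only as the deposited RPKM, which are scaled to gene length. Csf1, the growth factor of macrophages, was by far the most abundant at 509 RPKM in BAP1 KO and 443 RPKM in WT. After it came the receptor chains Il4ra (88.3 RPKM in BAP1 KO and 80.3 RPKM in WT), Il10rb (83.3 RPKM in BAP1 KO and 75.97 RPKM in WT) and Il6st (78.01 RPKM in BAP1 KO and 75.8 RPKM in WT). The WT level of 20.2 RPKM that closes the first 10 was that of Il6. Of these 10 abundant members only Il1r1 changed by 1.5-fold or more, against 14 of the other 42 tested members. Of all tested genes 14.8% passed both limits, and 1 of 10 is near that share. The others were Csf1, Il4ra, Il10rb, Il6st, Il21r, Osmr, Csf2ra and Il2rg, which lay between 0.00 and 0.19 on the log2 fold scale, and Il6, which fell.

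**Figure D2:**
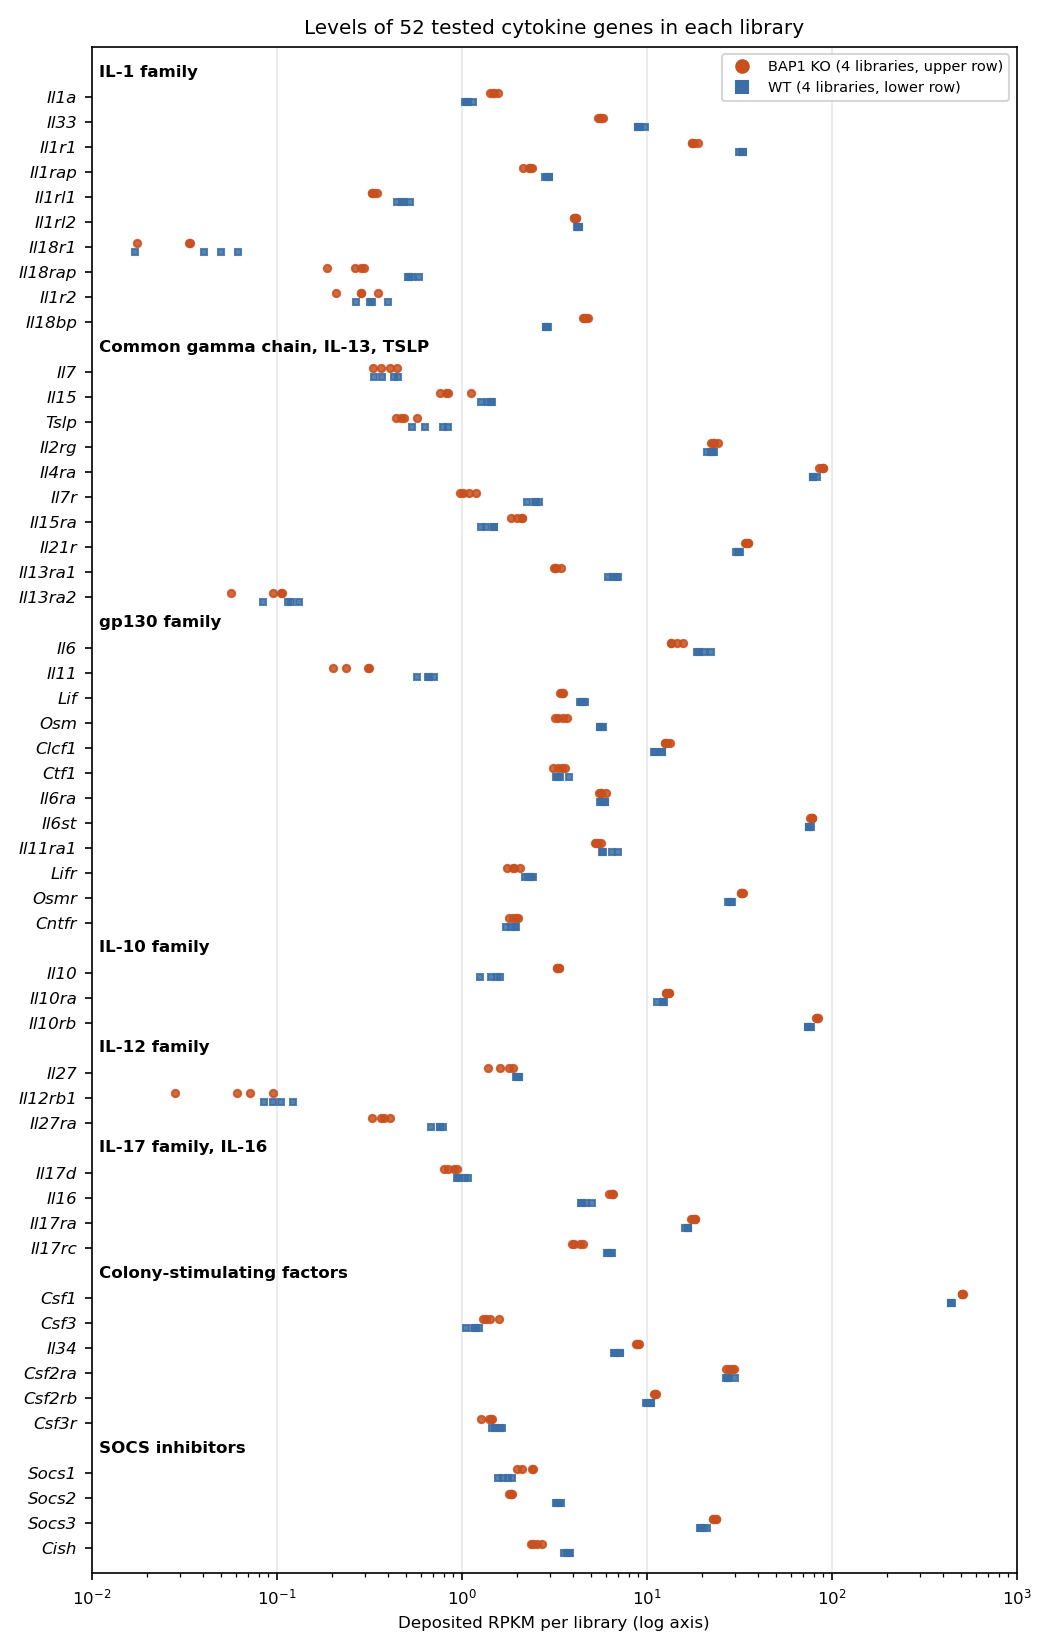
Deposited RPKM in each library (horizontal, log axis) for the 52 tested cytokine genes by family; circles in the upper line of each row are the 4 BAP1 KO libraries, squares in the lower line the 4 WT libraries. Csf1 lies furthest right, at 509 RPKM in BAP1 KO and 443 RPKM in WT, and the 2 genotypes separate most clearly for genes such as Il1r1, Il7r, Il13ra1 and Il10.

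**Figure D3:**
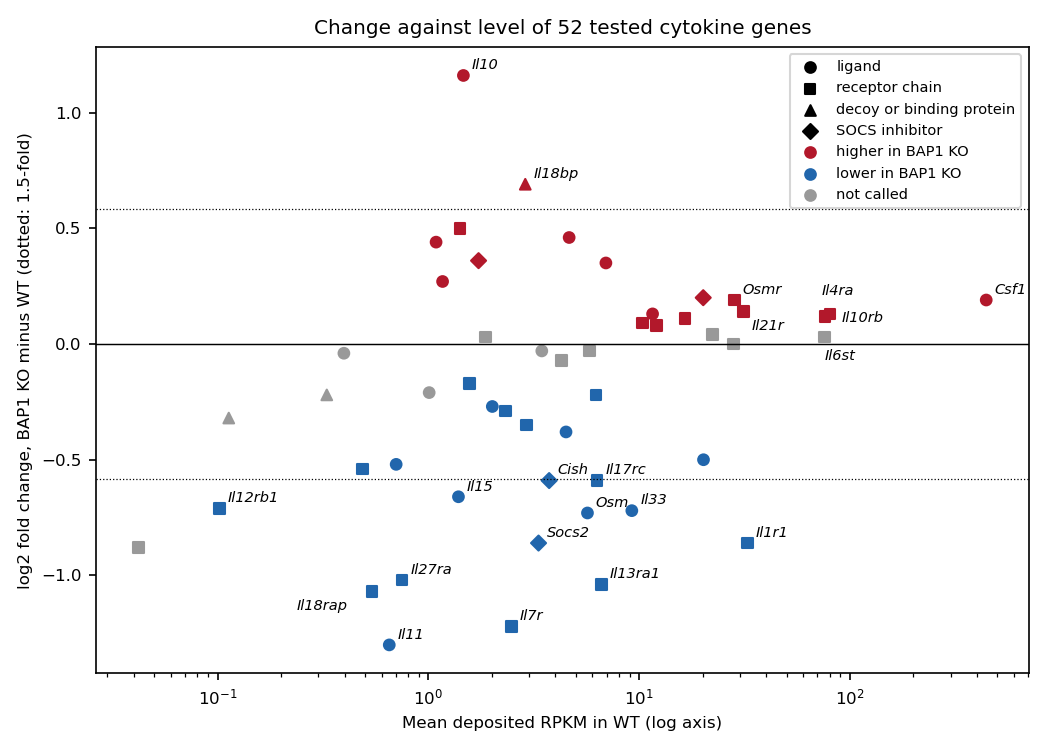
Log2 fold change (BAP1 KO minus WT) against the mean RPKM in WT (log axis) for the same 52 genes, with symbols for the role and colours for the call. Of the 10 members with the highest WT level only Il1r1 lies beyond the dotted 1.5-fold lines. Of all tested genes 14.8% passed the test and 1.5-fold.

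Libraries held 69.5 to 82.1 M counts in BAP1 KO and 67.1 to 84.9 M in WT. Bap1 itself stood at 53.2 ± 0.91 CPM in BAP1 KO and 63.2 ± 0.73 CPM in WT, a log2 fold change of -0.25 ± 0.03 (adjusted p = 2.1e-09), lower in every BAP1 KO library than in any WT library, at 84.2% of WT. Counts over a whole gene cannot tell whether a deleted exon is missing. Markers of macrophages, fibroblasts and smooth muscle were abundant, and those of lymphocytes, mast cells and neutrophils were scarce. Over 12 macrophage markers, led by Lyz2, C1qa and C1qb, the summed level was 17390 to 17950 CPM (counts scaled to a common library total) in BAP1 KO and 14980 to 15310 CPM in WT, with 5 markers higher, 6 lower and 1 not called. Without Lyz2, left out after its values were seen, the other 11 summed to 6677 to 6822 CPM in BAP1 KO and 6757 to 6938 CPM in WT, and the genotypes overlapped. Over 10 mesothelial markers, led by Upk3b, Upk1b and Lrrn4, it was 1209 to 1219 CPM in BAP1 KO and 1149 to 1177 CPM in WT (3 higher, 5 lower, 2 not called). All 7 fibroblast markers were lower, with sums of 12500 to 13000 CPM in BAP1 KO and 15380 to 16500 CPM in WT. The 6 smooth muscle markers summed to 9498 to 9613 CPM in BAP1 KO and 9110 to 9558 CPM in WT (3 higher, 2 lower, 1 not called). The 5 B cell, 7 mast cell and basophil and 7 neutrophil markers each summed to under 4 CPM in every library. The 6 T cell markers summed to 1.80 to 2.23 CPM in BAP1 KO and 4.164 to 4.495 CPM in WT, with Cd3d, Cd3e, Cd3g and Cd8a under 1 CPM in every library. Cd4 was the largest part of these sums, at 1.135 CPM in BAP1 KO and 3.268 CPM in WT. Lck stood at 0.629 CPM in BAP1 KO and 0.902 CPM in WT. The 6 endothelial markers summed to 29.9 to 32.1 CPM in BAP1 KO and 45.8 to 47.4 CPM in WT (5 lower, 1 not called). The 8 dendritic cell markers summed to 24.69 to 27.24 CPM in BAP1 KO and 31.48 to 32.38 CPM in WT. Of these, 5 were tested (1 higher, 3 lower, 1 not called), and Flt3, Xcr1, Clec9a, Cd209a and Ccr7 stayed under 1 CPM in every library. The 5 adipocyte markers summed to 52.79 to 56.01 CPM in BAP1 KO and 60.58 to 63.92 CPM in WT, with 4 tested (3 higher, 1 lower). The part of these cells in the results below was not tested, and fewer cells of a type cannot be told apart from less RNA per cell.

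In the IL-1 family, the signalling chains of the IL-1 and IL-33 receptors fell together with Il33, while Il1a and the IL-18 binding protein rose. Il1r1, the receptor chain that binds IL-1 (Entrez 16177; GRCm38 chromosome 1, 40222480 to 40316201), had 100.3, 98.9, 106 and 99.1 CPM in the BAP1 KO libraries, against 187, 185, 186 and 179 CPM in the WT libraries. The BAP1 KO mean was 54.9% of the WT mean, and the groups were far apart. The log2 fold change was -0.86 ± 0.03 (adjusted p = 3.5e-23), and an exact two-sided permutation test of the 8 values gave p = 0.029, the smallest that 4 against 4 libraries allow; all members below whose genotypes did not overlap share that value. RefSeq lists a pair of starts for Il1r1, and the 250 bases before the upstream one hold no match to the motif marked below. The 250 bases before the downstream one (RefSeq, GRCm38.p6; chr1:40266336-40266585, plus strand) are shown because Il1r1 is the abundant receptor that fell most, with the one match to the kappa B consensus, the NF-kB binding motif, in capitals.
Il1r1: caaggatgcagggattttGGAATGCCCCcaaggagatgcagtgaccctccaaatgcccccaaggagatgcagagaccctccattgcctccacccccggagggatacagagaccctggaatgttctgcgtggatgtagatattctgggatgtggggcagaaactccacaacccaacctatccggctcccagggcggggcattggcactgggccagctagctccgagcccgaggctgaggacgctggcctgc

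Il33, an alarmin stored in the nucleus of stromal and mesothelial cells (Entrez 77125; GRCm38 chromosome 19, 29925113 to 29960718), had 15.5, 16.3, 15.2 and 15.9 CPM in the BAP1 KO libraries, against 25.98, 25.3, 27.5 and 25.2 CPM in the WT libraries. The groups were far apart, and Il33 changed by -0.72 ± 0.04 (adjusted p = 4e-16). Its receptor chain Il1rl1, also called ST2, was scarce and had 2.498, 2.46, 2.44 and 2.61 CPM in the BAP1 KO libraries, against 3.96, 3.69, 3.57 and 3.37 CPM in the WT libraries (-0.54 ± 0.08, adjusted p = 1.6e-06). Il1rap, the accessory chain that IL-1 and IL-33 receptors share, fell too (24.4 ± 1.3 CPM in BAP1 KO and 31.1 ± 0.73 CPM in WT; -0.35 ± 0.04). Ligand, binding chain and accessory chain of the IL-33 receptor were thus all lower in each BAP1 KO library than in any WT library. Il1a, the membrane-associated IL-1 ligand, moved the other way, with 6.46, 7.16, 6.71 and 6.77 CPM in the BAP1 KO libraries, against 4.89, 5.28, 4.79 and 4.93 CPM in the WT libraries. It rose by 0.44 ± 0.06 (adjusted p = 3.9e-07), and its RPKM relative to that of Il33 was 0.256 to 0.272 in BAP1 KO and 0.107 to 0.129 in WT.

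On the IL-18 side, Il18bp, a secreted protein that binds and blocks IL-18, had 14.3, 15.01, 15.4 and 14.6 CPM in the BAP1 KO libraries, against 9.35, 9.18, 9.16 and 9.25 CPM in the WT libraries. The rise, 0.69 ± 0.05 (adjusted p = 5.2e-14), was clear of the WT spread in each library; its exons share 80 bases with those of Numa1 on the opposite strand. Il18rap, the accessory chain of the IL-18 receptor, had 1.36, 1.48, 1.52 and 0.965 CPM in the BAP1 KO libraries, against 2.68, 3.05, 2.66 and 2.803 CPM in the WT libraries. It fell by more than any other chain of the family (-1.07 ± 0.12, adjusted p = 2.5e-09), and BAP1 KO replicate 4 was lowest. The binding chain Il18r1 was near the detection limit (0.119 ± 0.065 CPM in BAP1 KO and 0.218 ± 0.097 CPM in WT; -0.88 ± 0.39, adjusted p = 0.054) and passed the test without BAP1 KO replicate 1 or 3 or WT replicate 1 and with library totals alone (adjusted p from 0.012 to 0.2 over the alternatives).

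Apart from Il1rap, the receptor genes of this family lie side by side on chromosome 1, from Il1r2 at 40084692 through Il1r1, Il1rl2, Il1rl1 and Il18r1 to Il18rap, which ends at 40551707, and with Il1rap included the 6 signalling chains ranged in log2 fold change between -1.07 and -0.07. Il1rl2, the IL-36 receptor chain, sits between Il1r1 and Il1rl1 and gave -0.07 ± 0.04 (adjusted p = 0.12, 95% interval -0.15 to 0.01). Il1r2, the decoy that binds IL-1 without signalling, stood at 0.445 ± 0.09 CPM in BAP1 KO and 0.522 ± 0.086 CPM in WT (adjusted p = 0.39, 95% interval -0.65 to 0.21). The ligand Il36g had 0, 3, 0 and 1 counts in BAP1 KO and 0, 0, 0 and 2 counts in WT and was not tested.

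**Figure D4:**
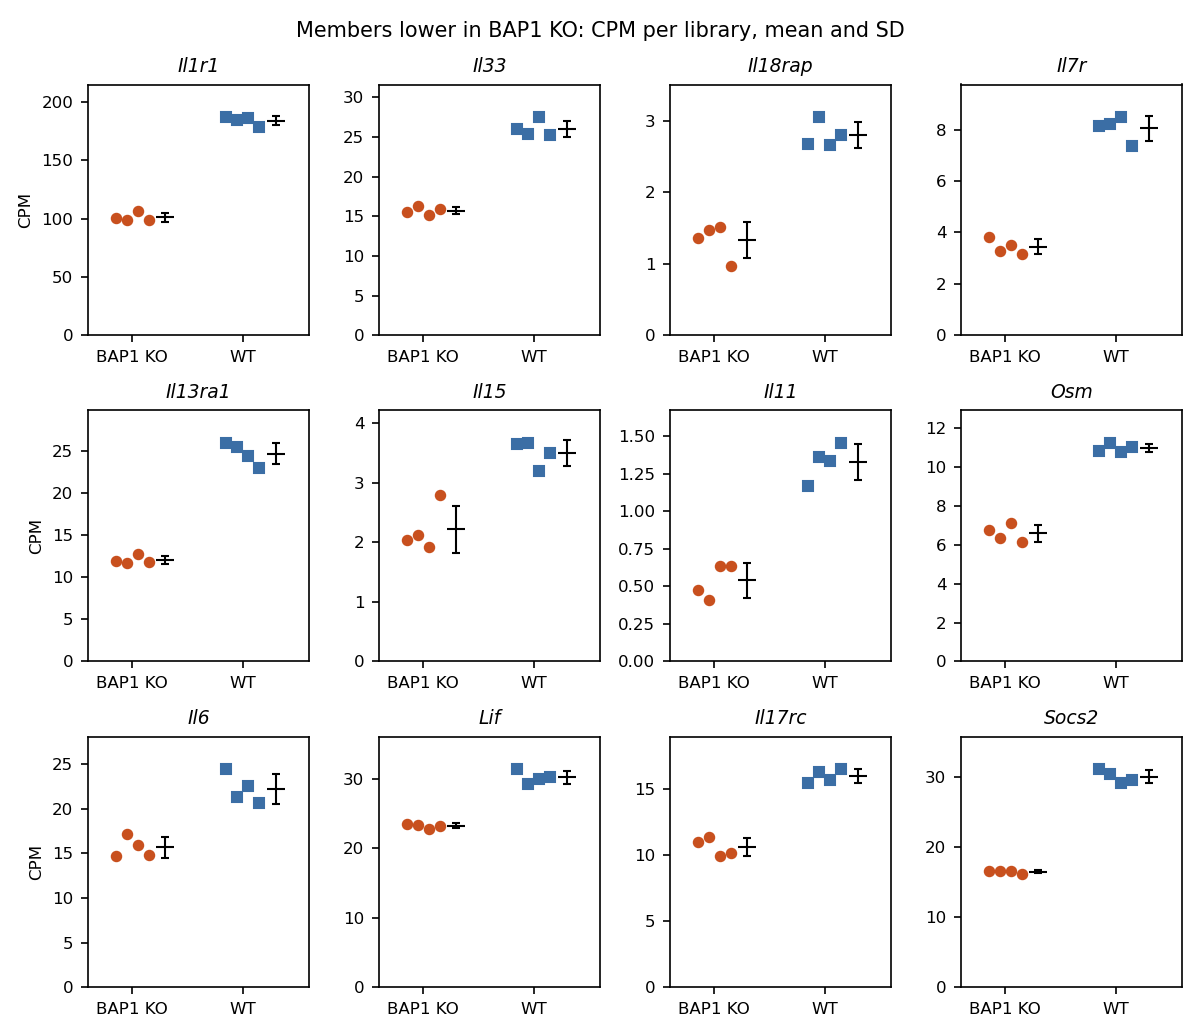
CPM in each library (vertical axis from 0, a scale per gene) for 12 members that were lower in BAP1 KO; circles are BAP1 KO, squares WT, and the black bar the mean with its SD (n = 4). The genotypes do not overlap in any of these panels.

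Among genes of the common gamma chain, IL-4 and IL-13 receptors, the IL-7 receptor chain Il7r and the IL-13 receptor chain Il13ra1 fell to less than 50% of WT, while the IL-4 receptor chain Il4ra rose slightly and the common gamma chain did not pass the test. Il7r, the IL-7 receptor chain that also serves TSLP (Entrez 16197; GRCm38 chromosome 15, 9506159 to 9529941), had 3.84, 3.27, 3.53 and 3.17 CPM in the BAP1 KO libraries, against 8.15, 8.21, 8.48 and 7.34 CPM in the WT libraries. Its log2 fold change of -1.22 ± 0.07 (adjusted p = 1.3e-15) was the largest fall of any receptor chain. The RPKM of Il7r relative to the common gamma chain Il2rg was 0.0418 to 0.0526 in BAP1 KO and 0.107 to 0.113 in WT. Il7r is also a marker of innate lymphoid and T cells; of 7 markers of natural killer and innate lymphoid cells, Il7r included, Ncr1, Klrb1c, Eomes and Nkg7 stayed under 1 CPM in every library, and the sum was 6.01 to 7.45 CPM in BAP1 KO and 11.1 to 12.3 CPM in WT. The 250 bases before a RefSeq start of Il7r (GRCm38.p6, chr15:9529877-9530126, minus strand) are shown because it fell most among the receptor chains. That start lies inside the gene span given above, as do the bases nearest to it. The capitals mark the only match to the STAT palindrome TTCNNNGAA.
Il7r: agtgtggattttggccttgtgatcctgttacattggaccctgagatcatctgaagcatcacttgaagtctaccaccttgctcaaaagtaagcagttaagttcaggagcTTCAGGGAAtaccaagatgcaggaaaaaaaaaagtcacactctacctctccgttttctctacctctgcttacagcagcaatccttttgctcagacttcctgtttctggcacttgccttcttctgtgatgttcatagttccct

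Il13ra1, which pairs with Il4ra to form the receptor for IL-13 and IL-4, had 11.9, 11.7, 12.8 and 11.9 CPM in the BAP1 KO libraries, against 25.98, 25.5, 24.5 and 23.1 CPM in the WT libraries. This was a fall to 48.7% of WT (-1.04 ± 0.04, adjusted p = 6.8e-19). Its partner Il4ra had 466, 451, 463 and 469 CPM in the BAP1 KO libraries, against 419.5, 421, 418 and 437 CPM in the WT libraries, a small rise of 0.13 ± 0.02 (adjusted p = 5.6e-06) without overlap. The RPKM of Il13ra1 relative to Il4ra was 0.0358 to 0.0389 in BAP1 KO and 0.0746 to 0.0875 in WT. The decoy Il13ra2 was scarce at 0.222 ± 0.057 CPM in BAP1 KO and 0.277 ± 0.05 CPM in WT (adjusted p = 0.34, 95% interval -0.89 to 0.25).

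IL-15 and its receptor chain moved in opposite directions. Il15, which sustains natural killer and memory T cells, had 2.04, 2.12, 1.91 and 2.799 CPM in the BAP1 KO libraries, against 3.64, 3.66, 3.19 and 3.49 CPM in the WT libraries. BAP1 KO replicate 4 was closest to WT but still below it, and the log2 fold change was -0.66 ± 0.10 (adjusted p = 1.3e-06). Il15ra, which presents IL-15 to neighbouring cells, rose by 0.50 ± 0.08 (4.81 ± 0.32 CPM in BAP1 KO and 3.39 ± 0.28 CPM in WT). Il21r, the IL-21 receptor, rose by 0.14 ± 0.03 from a high level (99.9 ± 1.9 CPM in BAP1 KO and 90.6 ± 2.2 CPM in WT). Il2rg, the common gamma chain, did not pass (0.04 ± 0.03, 95% interval -0.03 to 0.11, adjusted p = 0.38), and its exons share 728 bases with the protein-coding model Gm20489. Il7 itself stood at 1.03 ± 0.13 CPM in BAP1 KO and 1.06 ± 0.15 CPM in WT (adjusted p = 0.83, 95% interval -0.34 to 0.26). Tslp, an epithelial alarmin, fell (-0.52 ± 0.17, adjusted p = 0.0088), at 0.662 ± 0.078 CPM in BAP1 KO and 0.949 ± 0.19 CPM in WT, and the genotypes overlapped. Il4, a T cell product, had 2, 0, 1 and 0 counts in BAP1 KO and 1, 2, 0 and 1 counts in WT and was not tested.

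In the gp130 family, named after the signalling chain Il6st that all its receptors share, 4 of 6 ligands fell and the shared chain did not pass the test. Of all tested genes 32.1% were called lower. Il6, the main cytokine of the acute-phase response (Entrez 16193; GRCm38 chromosome 5, 30013114 to 30019975), had 14.7, 17.2, 15.97 and 14.8 CPM in the BAP1 KO libraries, against 24.4, 21.3, 22.5 and 20.7 CPM in the WT libraries. No BAP1 KO library reached the lowest WT library, and the log2 fold change was -0.50 ± 0.05 (adjusted p = 3.4e-09). Il11, a cytokine of fibrotic tissue, was scarce, with 0.476, 0.411, 0.638 and 0.634 CPM in the BAP1 KO libraries, against 1.17, 1.36, 1.34 and 1.45 CPM in the WT libraries. It had the largest fall of all tested members, -1.30 ± 0.16 (adjusted p = 3.2e-08). The promoters of Il6 (chr5:30012864-30013113, plus strand) and of the downstream start of Il11 (chr7:4778142-4778391, minus strand), each 250 bases before the start from RefSeq on GRCm38.p6, are shown as those of ligands that fell together. Capitals mark the AP-1 motif TGANTCA, which both hold, and, nearer the start of Il6, the kappa B consensus. The 250 bases before the upstream start of Il11 hold neither motif.
Il6: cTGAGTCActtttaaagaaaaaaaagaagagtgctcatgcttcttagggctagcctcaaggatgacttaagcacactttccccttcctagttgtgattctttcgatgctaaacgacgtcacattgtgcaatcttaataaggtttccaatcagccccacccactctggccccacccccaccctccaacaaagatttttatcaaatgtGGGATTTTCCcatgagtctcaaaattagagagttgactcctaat
Il11: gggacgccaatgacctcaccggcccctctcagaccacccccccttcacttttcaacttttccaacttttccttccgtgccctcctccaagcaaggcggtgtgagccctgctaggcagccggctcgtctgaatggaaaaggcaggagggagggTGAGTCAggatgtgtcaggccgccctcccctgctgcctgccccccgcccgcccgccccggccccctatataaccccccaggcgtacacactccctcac

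Lif and Osm, which lie next to each other on chromosome 11, fell as well. Lif, leukaemia inhibitory factor, had 23.5, 23.4, 22.8 and 23.3 CPM in the BAP1 KO libraries, against 31.4, 29.2, 29.98 and 30.3 CPM in the WT libraries (-0.38 ± 0.03, adjusted p = 7.2e-11). Osm, oncostatin M, a product of macrophages and neutrophils, had 6.74, 6.37, 7.13 and 6.15 CPM in the BAP1 KO libraries, against 10.8, 11.2, 10.8 and 11.04 CPM in the WT libraries (-0.73 ± 0.06, adjusted p = 7.3e-13). The spread within a genotype was small beside the difference for each of them. Exons of Clcf1 share 311 bases with the protein-coding model AC109138.7 on the same strand. Clcf1 rose slightly, 10.5 ± 0.31 CPM in BAP1 KO and 9.59 ± 0.52 CPM in WT (0.13 ± 0.05, adjusted p = 0.03). That call was lost without BAP1 KO replicate 1 (0.11) or 4 (0.13) or WT replicate 1 (0.11) or 3 (0.11), the values in brackets being its log2 fold change there, with library totals alone and with every gene kept, and its adjusted p ranged between 0.02 and 0.099. Ctf1, cardiotrophin 1, stood at 5.003 ± 0.32 CPM in BAP1 KO and 5.13 ± 0.37 CPM in WT (adjusted p = 0.7, 95% interval -0.18 to 0.11), and its exons overlap those of Ctf2 by 87 bases.

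Of the receptors, Il6st had 429, 433, 429 and 418 CPM in the BAP1 KO libraries, against 418, 426, 414 and 415 CPM in the WT libraries. The groups overlapped, and the log2 fold change of 0.03 ± 0.02 (adjusted p = 0.2) had a 95% interval -0.01 to 0.07. Il6ra, which binds IL-6, did not pass either (-0.03 ± 0.04, 95% interval -0.10 to 0.04), and nor did Cntfr (0.03 ± 0.06, 95% interval -0.09 to 0.15). Osmr, which binds oncostatin M, rose while its ligand fell, at 193 ± 2.8 CPM in BAP1 KO and 169 ± 3.5 CPM in WT (0.19 ± 0.02, adjusted p = 7.6e-09). Lifr fell along with Lif (20.6 ± 1.4 CPM in BAP1 KO and 25.3 ± 1.1 CPM in WT; -0.29 ± 0.04). Il11ra1 changed by -0.22 ± 0.06 (adjusted p = 0.001), and is uncertain because mice carry near-identical copies of it, among which only uniquely aligning reads were counted.

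Il10, an anti-inflammatory cytokine of macrophages and lymphocytes (Entrez 16153; GRCm38 chromosome 1, 131019845 to 131024970), had the largest rise of all tested members. It had 4.404, 4.30, 4.31 and 4.398 CPM in the BAP1 KO libraries, against 1.91, 2.14, 1.66 and 2.05 CPM in the WT libraries. The 4 BAP1 KO libraries agreed closely, all above every WT library, and the log2 fold change was 1.16 ± 0.09 (adjusted p = 7.3e-13). Its receptor chains were far more abundant and rose slightly, Il10rb, which other ligands share, by 0.12 ± 0.02 (175 ± 1 CPM in BAP1 KO and 161 ± 2.9 CPM in WT) and Il10ra by 0.08 ± 0.03 (adjusted p = 0.028). The call for Il10ra was lost with library totals alone, without BAP1 KO replicate 2 or 4 (0.07 each) and without WT replicate 3 (0.05), with adjusted p from 0.014 to 0.17. Exons of Il10rb share 569 bases with the protein-coding model Gm21970. The RPKM of Il10 relative to Il10ra was 0.249 to 0.266 in BAP1 KO and 0.110 to 0.131 in WT. Summed over all 12, the macrophage markers stood at 17390 to 17950 CPM in BAP1 KO and 14980 to 15310 CPM in WT, without overlap. Without Lyz2, left out after its values were seen, the sums overlapped. The part of macrophage RNA in the rise of Il10 was not tested. Il19, a relative of Il10 near it on chromosome 1, had 1, 3, 1 and 1 counts in BAP1 KO and 2, 0, 3 and 3 counts in WT and was not tested.

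All 3 tested genes of the IL-12 family fell, where 32.1% of all tested genes were called lower, but only Il27ra kept its call in every refit. Il27ra, a receptor chain that limits T cell responses, had 1.13, 1.09, 1.22 and 0.979 CPM in the BAP1 KO libraries, against 2.38, 2.28, 2.27 and 2.05 CPM in the WT libraries (-1.02 ± 0.11, adjusted p = 3.6e-09), without overlap. Its ligand subunit Il27 changed by -0.27 ± 0.10 (1.997 ± 0.27 CPM in BAP1 KO and 2.41 ± 0.044 CPM in WT; adjusted p = 0.023). The Il27 call was lost without BAP1 KO replicate 3 (-0.26) or 4 (-0.19), with adjusted p from 0.0095 to 0.12, and its exons overlap those of Apobr by 103 bases. Il12rb1, the chain shared by IL-12 and IL-23 receptors, changed by -0.71 ± 0.28 (0.232 ± 0.1 CPM in BAP1 KO and 0.373 ± 0.058 CPM in WT; adjusted p = 0.03). Its genotypes overlapped, and the call was lost with DESeq2 and without BAP1 KO replicate 2 (-0.46) or 3 (-0.69) or WT replicate 2 (-0.60) or 3 (-0.70), with adjusted p from 0.0089 to 0.15. Il23a had 6, 10, 11 and 8 counts in BAP1 KO and 3, 5, 5 and 2 counts in WT, too few for the test. Il12b and Il12a, other ligand subunits, had at most 8 counts in any library.

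The IL-17 receptor chains parted. Il17ra, the chain that IL-17 receptors share, rose by 0.11 ± 0.03 (71.99 ± 1.4 CPM in BAP1 KO and 66.7 ± 1.3 CPM in WT), while Il17rc, its partner for IL-17A and IL-17F, had 10.99, 11.4, 9.96 and 10.2 CPM in the BAP1 KO libraries, against 15.5, 16.3, 15.7 and 16.5 CPM in the WT libraries (-0.59 ± 0.05, adjusted p = 5.1e-12). Il17rc was lower in each BAP1 KO library than in any WT library. Il17d, a ligand of the family, did not pass (-0.21 ± 0.13, adjusted p = 0.16, 95% interval -0.48 to 0.05), though its genotypes did not overlap. Il16, a lymphocyte attractant, rose, at 39.7 ± 0.85 CPM in BAP1 KO and 28.9 ± 1.8 CPM in WT (0.46 ± 0.04, adjusted p = 3e-12); 1202 bases of its exons overlap those of Stard5, and reads of Stard5 may be among its counts.

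The macrophage growth factors rose. Csf1 (Entrez 12977; GRCm38 chromosome 3, 107741048 to 107760469) had 2273, 2274, 2250 and 2264 CPM in the BAP1 KO libraries, against 1984, 2000, 1978 and 1990 CPM in the WT libraries. The difference of 0.19 ± 0.02 (adjusted p = 9.3e-11) is small as a fold, but the gene was so abundant and its libraries so alike that the ranges were far apart. Il34, which shares the receptor CSF1R with CSF1, had 20.3, 20.2, 19.7 and 19.9 CPM in the BAP1 KO libraries, against 15.1, 16.2, 16.3 and 15.3 CPM in the WT libraries (0.35 ± 0.04, adjusted p = 9.1e-09), again without overlap. Their receptor Csf1r, also a macrophage marker and named after its values were seen, stood at 877 ± 9.9 CPM in BAP1 KO and 848 ± 12 CPM in WT (0.05 ± 0.02, adjusted p = 0.029). The RPKM of Csf1 exceeded that of Il34 by 56.5 to 57.6 times in BAP1 KO and 61.3 to 66.0 times in WT. The 250 bases before the start of Csf1 (RefSeq, GRCm38.p6; chr3:107760470-107760719, minus strand) are shown for the most abundant member, with the one kappa B match in capitals.
Csf1: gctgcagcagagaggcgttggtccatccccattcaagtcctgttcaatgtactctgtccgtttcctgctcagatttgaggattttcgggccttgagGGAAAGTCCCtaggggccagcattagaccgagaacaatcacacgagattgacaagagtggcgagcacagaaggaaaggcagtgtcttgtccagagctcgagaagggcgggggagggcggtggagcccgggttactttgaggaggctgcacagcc

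Csf3, the granulocyte growth factor G-CSF, rose by 0.27 ± 0.07 (5.73 ± 0.52 CPM in BAP1 KO and 4.76 ± 0.33 CPM in WT; adjusted p = 0.002), and its receptor Csf3r changed by -0.17 ± 0.06 (adjusted p = 0.018), a call lost without BAP1 KO replicate 1 (-0.13) or WT replicate 2 (-0.15) or 3 (-0.15), with adjusted p from 0.0076 to 0.082. Csf2, the growth factor GM-CSF, had 5, 14, 14 and 11 counts in BAP1 KO and 5, 8, 6 and 5 counts in WT and was not tested. Its receptor was present: Csf2ra, the binding chain, stood at 65.6 ± 2.9 CPM in BAP1 KO and 65.3 ± 3.4 CPM in WT (adjusted p = 0.91, 95% interval -0.06 to 0.07). Csf2rb, the common beta chain, had 55.4, 55.1, 54.8 and 54.1 CPM in the BAP1 KO libraries, against 50.9, 52.97, 52.6 and 49.5 CPM in the WT libraries (0.09 ± 0.03, adjusted p = 0.0071). Csf2rb is uncertain, because mice have the near-identical copy Csf2rb2 beside it.

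**Figure D5:**
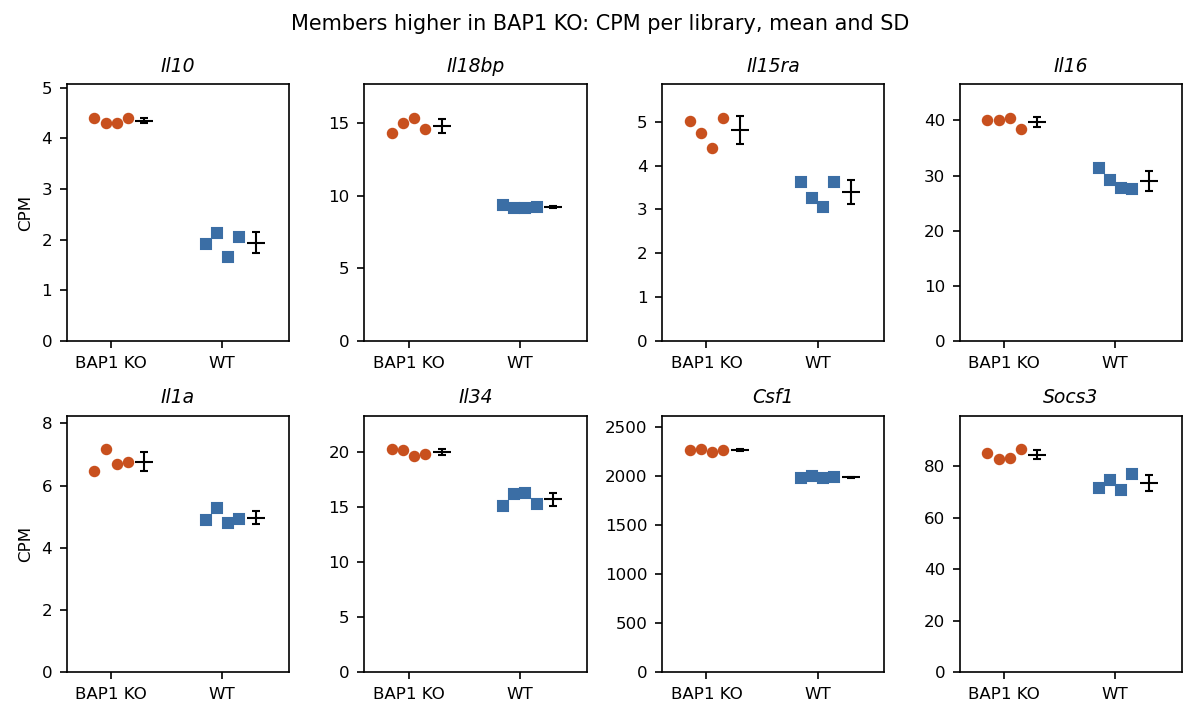
CPM in each library (vertical axis from 0, a scale per gene) for 8 members that were higher in BAP1 KO; circles are BAP1 KO, squares WT, and the black bar the mean with its SD (n = 4). Il10 shows the widest relative gap, with all BAP1 KO libraries between 4.30 and 4.40 CPM and all WT libraries between 1.66 and 2.14 CPM.

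The SOCS inhibitors split between members. Socs2, which is known for restraining growth hormone signalling (Entrez 216233; GRCm38 chromosome 10, 95383903 to 95417321), had 16.6, 16.6, 16.7 and 16.2 CPM in the BAP1 KO libraries, against 31.1, 30.5, 29.1 and 29.5 CPM in the WT libraries. Its log2 fold change was -0.86 ± 0.04 (adjusted p = 6.3e-19). Cish, a target and inhibitor of STAT5, had 9.31, 8.85, 8.23 and 8.397 CPM in the BAP1 KO libraries, against 12.5, 13.03, 13.4 and 13.2 CPM in the WT libraries (-0.59 ± 0.05, adjusted p = 1.8e-11); an antisense transcript and a pseudogene overlap its exons. Neither gene overlapped between genotypes. Socs3, the inhibitor that acts on gp130, had 85.2, 82.8, 83.3 and 86.6 CPM in the BAP1 KO libraries, against 71.7, 74.9, 70.7 and 77.1 CPM in the WT libraries (0.20 ± 0.03, adjusted p = 4.1e-07). Socs1, which restrains interferon and IL-4 signalling, rose as well (3.02 ± 0.29 CPM in BAP1 KO and 2.35 ± 0.18 CPM in WT; 0.36 ± 0.09, adjusted p = 0.0016). Socs2 and Cish, both known as STAT5 targets, were thus lower and Socs1 and Socs3 higher in each BAP1 KO library than in any WT library.

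Other genes of these pathways moved in both directions. The lists used here were chosen with earlier results of these data known. Of 11 Janus kinases and STATs, 3 rose, 6 fell and 2 were not called (81.8% called, median log2 fold change -0.09). Over all tested genes, 61.1% were called, 29.0% higher and 32.1% lower, with a median of -0.005, and the lists below are to be read against these shares. Stat4 fell to 0.373 CPM in BAP1 KO, against 1.77 CPM in WT (-2.25 ± 0.15), Stat2 changed by -0.34 ± 0.03 and Jak3, which pairs with the common gamma chain, by -0.49 ± 0.05, and Stat6, which serves IL-4 and IL-13, rose by 0.16 ± 0.02. Among 11 further inhibitors, 5 rose, 2 fell and 4 were not called, a called share of 63.6% that is close to the 61.1% of all tested genes. The phosphatase Ptpn6 rose by 0.33 ± 0.02, the adaptor Sh2b3 by 0.15 ± 0.03 and the STAT inhibitor Pias4 by 0.15 ± 0.04, while Socs5 gave -0.28 ± 0.02. The count of 5 rises was 3 without BAP1 KO replicate 3, WT replicate 2 or WT replicate 3, with upper quartile factors and with library totals alone. The 2 falls were 1 with DESeq2 and without BAP1 KO replicate 1 or 4 or WT replicate 1 or 2.

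Among 12 genes of IL-1 receptor signalling, 3 rose, 4 fell and 5 were not called, a called share of 58.3% against 61.1% of all tested genes. The changes with the smallest adjusted p were Irak1 at 0.24 ± 0.03, Irak2 at 0.24 ± 0.03, the inhibitor Irak3 at -0.63 ± 0.04 and the inhibitory receptor Sigirr at -2.13 ± 0.25 (0.155 ± 0.059 CPM in BAP1 KO and 0.679 ± 0.066 CPM in WT). Of 13 genes of the acute phase or known to respond to STAT3, 6 rose, 4 fell and 3 were not called (76.9% called, against 61.1% of all tested genes). Il1rn, the soluble antagonist of Il1r1, changed by -1.52 ± 0.04, with 14.9 ± 1 CPM in BAP1 KO and 42.6 ± 1.8 CPM in WT. Saa3 and Lcn2, acute-phase proteins, rose by 0.32 ± 0.03 and 0.97 ± 0.11, and Timp1, a protease inhibitor, changed by -0.23 ± 0.02. Of 10 genes used as markers of macrophages activated by IL-4, not all of them induced by it, 5 were tested. All 5 were called, where 61.1% of all tested genes were. Ccl24 rose by 0.63 ± 0.05, and Arg1 (-1.81 ± 0.03), Mgl2 (-2.70 ± 0.19) and Cd163 (-0.32 ± 0.03) were among the 4 that fell. With every gene kept the rises were 2. Of 10 genes linked to CSF responses in macrophages 8 were tested, 3 rose, 3 fell and 2 were not called (6 of 8 called, against 61.1% of all tested genes), with Spi1 at 0.27 ± 0.03, Maf at 0.26 ± 0.03 and Irf4 at -0.82 ± 0.15.

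The promoter table held 42 of the 59 genes, with 60 starts. The STAT palindrome TTCNNNGAA occurred in the 250 bases before 6 of the 60 starts, where 7.02% of all 32851 promoters hold it. TGANTCA, the AP-1 motif, occurred in 7 (11.7%, against 6.75% of all), and the kappa B consensus in 6 (against 3.90% of all). Both strands were searched, and no test was made. Matches stood before genes that fell (Il1r1, Il6, Il7r, Il11 and Lif), rose (Csf1, Il1a, Il15ra, Il16 and Socs3) or were not called or not tested (Cntfr, Il13ra2, Il18r1, Il19, Il1r2 and Il36g). Every promoter printed above holds a match. None stood before Il13ra1, Il17rc, Il18rap, Il33 or Cish, which fell by at least 1.5-fold, nor before Il18bp, which rose by that much. A match of letters does not show that a factor bound there.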

How the data were processed

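Per the labels, column-purified RNA treated with DNase went into polyadenylated TruSeq libraries read as single ends of 50 bp. The submitters' processing notes name GSNAP and the build GRCm38; their versions, the gene annotation and the use of strand were not stated in what was read here. The authors deposited counts of reads that align uniquely to each gene model, per the file headers, and RPKM that they scaled by size factors. Over 12823 well-covered genes, the deposited RPKM per count differed between libraries by 1 common factor only.

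Symbols came from RefSeq GRCm38.p6 (Il36g by its synonym) and exon overlaps from GENCODE. Overlaps are not given above for every member that has one. Transcripts on the opposite strand share 571 exon bases with Il4ra, 552 with Il1rap and 222 with Il1a, among others. The test was edgeR 4.0.16 in R 4.3.3 on all genes, with TMM factors, filterByExpr, a robust quasi-likelihood fit and Benjamini-Hochberg adjustment at 0.05. The code was run on simulated counts with the same spread for every gene and few changed genes. That differs from these data, so the run does not measure the error of the calls here. CPM use TMM-adjusted totals, 69.5 to 82.1 M counts in BAP1 KO and 67.1 to 84.9 M in WT before adjustment. The members and lists were chosen with earlier results of these data known. Values in every library are given for the 24 members that pass the test and 1.5-fold and reach 1 CPM in a genotype, or that belong to a fixed set. Each list is illustrated by up to 4 genes with the smallest adjusted p, 1 of which is not reported here. Refits used upper quartile or RLE factors, library totals alone, no filter, CPM above 1 in 4 libraries, DESeq2 1.42.0, limma-voom (limma 3.58.1) and each library left out.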

Additional observations from a re-analysis of the deposited data

How the results depend on the processing

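Each tested member was refitted under 15 alternatives, 8 of which left out a library; the scarcest members had no value under the filter of CPM above 1 in 4 libraries. Of the 40 members called, 35 kept their direction and their side of the threshold under every alternative that tested them. The exceptions were Clcf1, Csf3r, Il10ra, Il12rb1 and Il27, which kept their direction. With a library left out, members called ran from 16 to 18 higher and 20 to 23 lower, those past 1.5-fold from 2 to 3 higher and 11 to 15 lower, and all genes from 4650 to 4883 higher and 5172 to 5370 lower. The median of all genes lay between -0.020 (library totals) and 0.005 (RLE). Signs reversed in 4 members that were not called: Csf2ra (-0.00364 with upper quartile factors, -0.0102 with library totals, -0.018 to 0.041 with a library left out), and, with a library left out, Cntfr (-0.00465 to 0.0586), Il7 (-0.112 to 0.0355) and Ctf1 (-0.0641 to 0.0163). Il18r1 passed in 4 alternatives. The cause was not tested. No paired analysis was possible because the labels carry no replicate numbers; those used here only name libraries. Depth limits the scarce members, 7 of which had too few counts to test.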
